A study of Mus musculus with 6 samples.

Results

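Heat shock chaperones bind unfolded proteins and help them fold, stay soluble or be handed to the proteasome. The set described here holds 51 genes: the HSP70 chaperones with their larger HSP110 relatives, the HSP90 chaperones, the DnaJ proteins that load clients onto HSP70, the BAG proteins that release nucleotide from it, the small heat shock proteins, the ring-shaped chaperonins, other HSP70 and HSP90 co-chaperones, and 2 heat shock transcription factors. They were taken by name from the array annotation, and 48 of the 51 had a probe set that carries their symbol alone, out of 18193 genes measured that way. Hsp90ab1 and Hsf1 had no probe set with their symbol in the annotation, and the 2 probe sets of Ptges3 are shared with its pseudogene, so these members were not analysed here. Most of the set works in the cytosol and nucleus, but Hspa9, Hspd1, Hspe1 and Dnaja3 are mitochondrial proteins and are named as such below.

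In resting cells HSF1, the main heat shock factor, is kept inactive by chaperones; when unfolded proteins occupy them, HSF1 forms trimers, binds heat shock elements in promoters and switches on inducible chaperones such as Hspa1a, Hspa1b, Dnajb1, Hsph1, Bag3 and Hspb1. Constitutive chaperones, such as Hspa8 and the CCT ring that folds actin and tubulin, are made at high levels without stress and change less.

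The study measured splenic B cells of 6 mice on Affymetrix arrays, 1 array per mouse. Every mouse, controls included, carried the EµBcl2 transgene, in which a B-lymphoid enhancer drives the survival gene Bcl2. In the 3 control mice both copies of Crebbp, which encodes the histone acetyltransferase CBP, were flanked by recombination sites (CBPF/F x EµBcl2, Crebbp-floxed), and in the other 3 Crebbp was deleted (CBPΔ/Δ x EµBcl2, Crebbp-deleted); the Cre line and the ages of the mice are not given in the sources used here. Spleen cells of both groups had been frozen and thawed, and B cells were then left untouched while CD43-bearing cells were removed on beads. Levels below are log2 intensities of 1 probe set per gene, differences are deleted minus floxed, and a gene is called where limma's p, adjusted by Benjamini-Hochberg over all 18193 genes, is under 0.05.

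The array medians lay between 4.27 and 4.30, and at every one of the 4 Crebbp probe sets the deleted samples all lay below the floxed ones (differences of −0.50 to −0.97). The B cell list had 9 of 10 markers measured, with none below the median probe set level of 4.29. Floxed sample 2 stood apart from the other floxed samples in some heat shock genes, as given below for each of them, and by Xist and Y-linked genes the males were floxed sample 1, deleted sample 1 and deleted sample 3, the remaining 3 mice being female. Genotype results are therefore given with sex as a term and without single samples where that changes them.

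Promoters of the members that differed most were searched for the heat shock element, which consists of alternating GAA and TTC units spaced by 2 bases. The stretches below are the 250 bases before the start site from RefSeq (GRCm38.p6), written 5′ to 3′, with 2-unit elements (GAANNTTC or TTCNNGAA, each its own reverse complement, so that both strands are covered) in capitals. They are shown because Hspa1a, Hspb1 and Dnaja4 had the 3 largest differences of the set, and Hspd1 shares its promoter with a neighbour.
Hspa1a, chr17:34972157-34972406, minus strand: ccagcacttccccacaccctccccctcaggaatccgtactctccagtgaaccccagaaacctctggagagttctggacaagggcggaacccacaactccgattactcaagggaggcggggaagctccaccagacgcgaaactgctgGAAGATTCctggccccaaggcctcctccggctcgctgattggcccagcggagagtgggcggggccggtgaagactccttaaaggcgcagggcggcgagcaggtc
Hspb1, chr5:135887669-135887918, plus strand: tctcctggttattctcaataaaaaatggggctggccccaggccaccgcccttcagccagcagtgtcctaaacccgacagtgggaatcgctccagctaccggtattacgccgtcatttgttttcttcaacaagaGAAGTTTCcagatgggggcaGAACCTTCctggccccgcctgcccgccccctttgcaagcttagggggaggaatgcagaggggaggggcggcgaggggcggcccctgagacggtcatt
Dnaja4, chr9:54699309-54699558, plus strand: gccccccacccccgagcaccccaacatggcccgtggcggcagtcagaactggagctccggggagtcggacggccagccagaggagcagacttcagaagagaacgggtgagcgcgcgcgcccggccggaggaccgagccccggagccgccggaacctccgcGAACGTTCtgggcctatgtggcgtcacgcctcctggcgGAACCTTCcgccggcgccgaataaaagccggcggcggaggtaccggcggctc
Hspd1, chr1:55087933-55088182, minus strand: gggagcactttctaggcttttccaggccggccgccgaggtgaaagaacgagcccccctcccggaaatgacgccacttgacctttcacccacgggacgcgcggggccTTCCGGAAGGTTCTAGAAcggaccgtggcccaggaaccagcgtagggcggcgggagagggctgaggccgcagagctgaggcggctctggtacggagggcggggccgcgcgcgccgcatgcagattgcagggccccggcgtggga
The Hspa1a element begins 104 bases before the start site, and the Hspa1b promoter holds the same element at the same place: the 300-base windows of these gene copies (250 bases before and 50 after the start) align with 296 identical bases. Hspb1 has elements that begin 117 and 97 bases before its start, and Dnaja4 has them 90 and 52 bases before the start of one of its transcripts. The Hspd1 stretch joins 4 alternating units into 1 run; Hspe1, which encodes the partner ring of the same mitochondrial chaperonin, is read from the other strand, and its window overlaps that of Hspd1 by 285 bases. In Hsph1 a single 3-unit element, TTCTGGAAAGTTC, begins 15 bases after one annotated start site and 36 bases after another, and in Chordc1 3-unit elements span the start site.

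Over the set, 4 of 48 measured members rose in the Crebbp-deleted samples and 0 fell (limma adjusted p under 0.05), against 0.544% of all genes that rose and 0.236% that fell. The 4 were Dnaja4, Hspb1, Bag3 and Hsph1, which belong to 4 different classes. At an unadjusted p under 0.05 limma had 20 members higher (7.96% of all genes) and 4 lower (6.84% of all genes). In 19 members all 3 deleted samples lay above all 3 floxed samples, where 11.2% of all genes did, and in 5 they lay below, where 10% did. The median difference was 0.16 over the 48 members and 0.01 over all genes, and 35 of the 48 had a positive difference, where 53.4% of all genes had one. A difference of at least 1 was found in 8 members and in 1.10% of all genes. The other 40 members had a median difference of 0.11. The members were chosen with results of these data known, so these shares describe the set. The arrays measure a mix of cells, in which more cells with a transcript and more transcript per cell cannot be told apart.

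**Figure D1:**
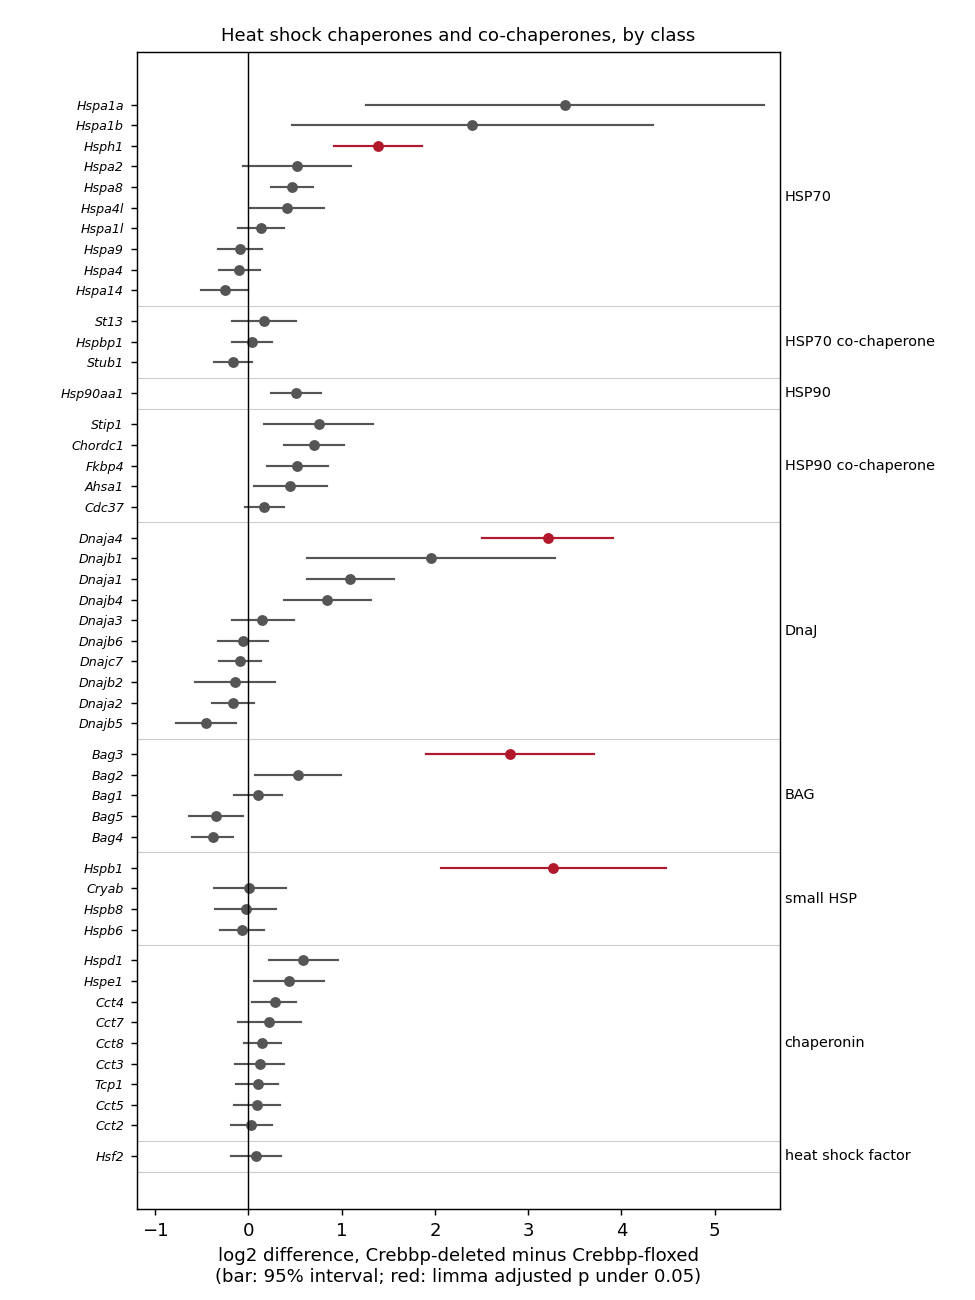
Difference in log2 intensity (x axis, Crebbp-deleted minus Crebbp-floxed, 3 mice each) of the 48 measured members, grouped by class; points are differences, bars are 95% intervals from limma, and red marks an adjusted p under 0.05. Each class with a red point holds further members whose intervals reach or cross 0.

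In the HSP70 class the stress-inducible genes differed most. Hspa1a, an inducible cytosolic HSP70, stood at 6.85, 10.99 and 8.10 in floxed samples 1, 2 and 3 and at 12.11, 11.72 and 12.29 in deleted samples 1, 2 and 3. The groups did not overlap, but floxed sample 2 lay 3.52 above the mean of the other floxed samples and nearer to the deleted ones. The difference was 3.39 ± 0.91 (SE, 10.5-fold) and did not pass (limma adjusted p = 0.155). Hspa1b, its near-identical copy, was at 8.66, 12.47 and 9.96 in the floxed samples and at 12.77, 12.67 and 12.87 in the deleted ones. The deleted samples were close together, and floxed sample 2 lay just below them. Its difference of 2.40 ± 0.83 did not pass (limma adjusted p = 0.238), and its 3 probe sets gave 2.40, 2.67 and 2.95. Because these genes are near-identical in sequence, their probe sets may read each other's transcripts. Without floxed sample 2 both passed, with differences of 4.56 for Hspa1a (limma adjusted p = 0.0181, over its alternatives 0.0181 to 0.34) and 3.46 for Hspa1b (limma adjusted p = 0.0259, over its alternatives 0.0259 to 0.466).

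Hsph1, an HSP110 chaperone that exchanges nucleotide on HSP70 and keeps aggregates soluble, rose from 9.59, 9.40 and 9.65 in the floxed samples to 11.33, 10.50 and 10.98 in the deleted ones. Here floxed sample 2 was the lowest sample, and the floxed group spanned only 9.40 to 9.65. The difference was 1.39 ± 0.20 (SE, 2.62-fold, limma adjusted p = 0.0357), and its second probe set gave 1.36. The other HSP110 genes did not follow it: Hspa4 had a difference of −0.10 and Hspa4l one of 0.41, neither past the test (limma adjusted p = 0.692 and 0.322), and the 4 probe sets of Hspa4 disagreed in sign.

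Hspa8, the constitutive HSP70 that is abundant in nearly all cells, was at 12.54, 12.77 and 12.58 in the floxed samples and at 13.15, 13.04 and 13.10 in the deleted ones. The groups did not overlap, and the difference of 0.47 ± 0.10 (SE, 1.38-fold) did not pass (limma adjusted p = 0.0827). With a trend in the variances it passed (limma adjusted p = 0.0424, over its alternatives 0.0424 to 0.263). The dimmest of its 4 probe sets read 6.17, 7.75 and 6.01 in floxed samples and 7.76, 7.86 and 9.25 in deleted ones, so that floxed sample 2 again lay close to the deleted group. The rest of the class had differences of at most 0.52 and did not pass. Hspa2, a chaperone best known from testis, had 0.52, the mitochondrial HSP70 Hspa9 −0.09, the ribosome-linked Hspa14 −0.25 and the testis chaperone Hspa1l 0.14 at a level below the array median. Hspa14 was lower without overlap (limma adjusted p = 0.332), and its 3 probe sets gave −0.25, −0.17 and −0.22. Hspa1l is read from the strand opposite Hspa1a, and 46 bases separate their promoter windows, yet its values ran from 2.43 to 2.70 over all 6 samples. Of the 3 co-chaperones of HSP70, the ubiquitin ligase Stub1 was at 9.31, 9.12 and 9.22 in floxed and at 9.06, 9.05 and 9.03 in deleted samples, a difference of −0.17 (limma adjusted p = 0.428) without overlap, while St13, which stabilises the bound state, had 0.17 and the exchange factor Hspbp1 0.04.

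The DnaJ class split by member. Dnaja4, a cytosolic DnaJ protein that stimulates HSP70's ATPase, rose from 3.78, 3.27 and 4.24 in the floxed samples to 7.45, 6.51 and 6.96 in the deleted ones. The lowest deleted sample lay far above the highest floxed one, and all 3 of its probe sets passed when every probe set was tested singly, with differences of 3.21, 2.15 and 1.80 (limma adjusted p = 0.0184, 0.0255 and 0.0295). The difference of 3.21 ± 0.30 (SE, 9.25-fold) had a limma adjusted p of 0.00929, the smallest in the set. The floxed mean of 3.76 lies below the median probe set level of 4.29, so the size of this fold is uncertain.

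Dnajb1, the main inducible partner of Hspa1a, was at 8.61, 10.83 and 9.12 in floxed samples and at 11.36, 10.91 and 12.17 in deleted ones. At this probe set the groups barely failed to overlap, since floxed sample 2 was 1.97 above the mean of the other floxed samples. The difference of 1.96 ± 0.57 (SE) did not pass (limma adjusted p = 0.175). Without floxed sample 2 it was 2.62 and passed (limma adjusted p = 0.0467, over its alternatives 0.0467 to 0.422). A second probe set of Dnajb1 read 8.58, 10.37 and 9.24 in floxed and 11.64, 11.13 and 11.64 in deleted samples. It gave 2.07 ± 0.41 (SE, limma adjusted p = 0.0955 over all probe sets). Dnaja1, which works with Hspa8 in protein import and folding, stood at 10.42, 10.95 and 10.71 in floxed and at 12.02, 11.40 and 11.94 in deleted samples. Its 3 probe sets gave 1.09, 0.90 and 0.96, and the representative did not pass (limma adjusted p = 0.062), while the mean of the 3 did (0.99, limma adjusted p = 0.0394), as did the representative with a trend in the variances (limma adjusted p = 0.0474, over its alternatives 0.0394 to 0.203). Dnajb4, a close relative of Dnajb1, was at 7.31, 7.99 and 7.93 against 8.67, 8.35 and 8.74, a difference of 0.84 ± 0.20 (SE, limma adjusted p = 0.117); the dimmest of its 3 probe sets gave −0.12.

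The other 6 DnaJ genes lay between −0.46 and 0.15. At the representative probe sets Dnajb5, a relative of Dnajb1, had the lowest difference of all 48 members. Its floxed samples ran from 6.30 to 6.65 and its deleted ones from 5.86 to 6.23, without overlap (−0.46, limma adjusted p = 0.188). The mitochondrial Dnaja3 had 0.15, Dnaja1's paralogue Dnaja2 −0.16, Dnajb6, which blocks amyloid aggregation, −0.06, the neuronal Dnajb2 −0.14, and Dnajc7, which bridges HSP70 and HSP90, −0.09. All 4 probe sets of Dnaja2 were lower. A dimmer one read 8.45, 8.18 and 8.32 in floxed and 7.46, 7.77 and 6.93 in deleted samples. Its difference was −0.93 (limma adjusted p = 0.119 over all probe sets).

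BAG proteins share a domain that binds HSP70, and they too diverged. Bag3, the inducible member that pairs with small heat shock proteins and directs clients to autophagy, rose from 4.90, 4.72 and 6.09 in floxed samples to 8.25, 7.47 and 8.39 in deleted ones. Floxed sample 2 was the lowest and floxed sample 3 the highest control. The difference was 2.80 ± 0.39 (SE, 6.97-fold, limma adjusted p = 0.031). Bag4, which restrains TNF receptor signalling, went the other way without passing, at 6.50, 6.68 and 6.58 in floxed against 6.15, 6.17 and 6.30 in deleted samples (−0.38 ± 0.09 SE, limma adjusted p = 0.132); its other 2 probe sets gave −0.08 and −0.04. Bag5, which has several BAG domains, was also lower without overlap (−0.35, limma adjusted p = 0.251). The housekeeping Bag1 had 0.10 and Bag2, an inhibitor of Stub1, had 0.53 at a level below the array median.

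Among small heat shock proteins, which hold unfolded proteins in a refoldable state, Hspb1 was alone in rising. It stood at 5.51, 6.10 and 6.36 in the floxed samples and at 8.91, 8.37 and 10.51 in the deleted ones, with deleted sample 3 well above the rest. The difference was 3.27 ± 0.51 (SE, 9.67-fold, limma adjusted p = 0.0446), and its second probe set, whose _x_at suffix marks probes that may read other transcripts, gave 3.63. Hspb6, Hspb8 and Cryab, which are known from muscle and lens, lay at group means of 3.33 to 4.16, below the array median, and their differences were −0.07, −0.03 and 0.01.

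**Figure D2:**
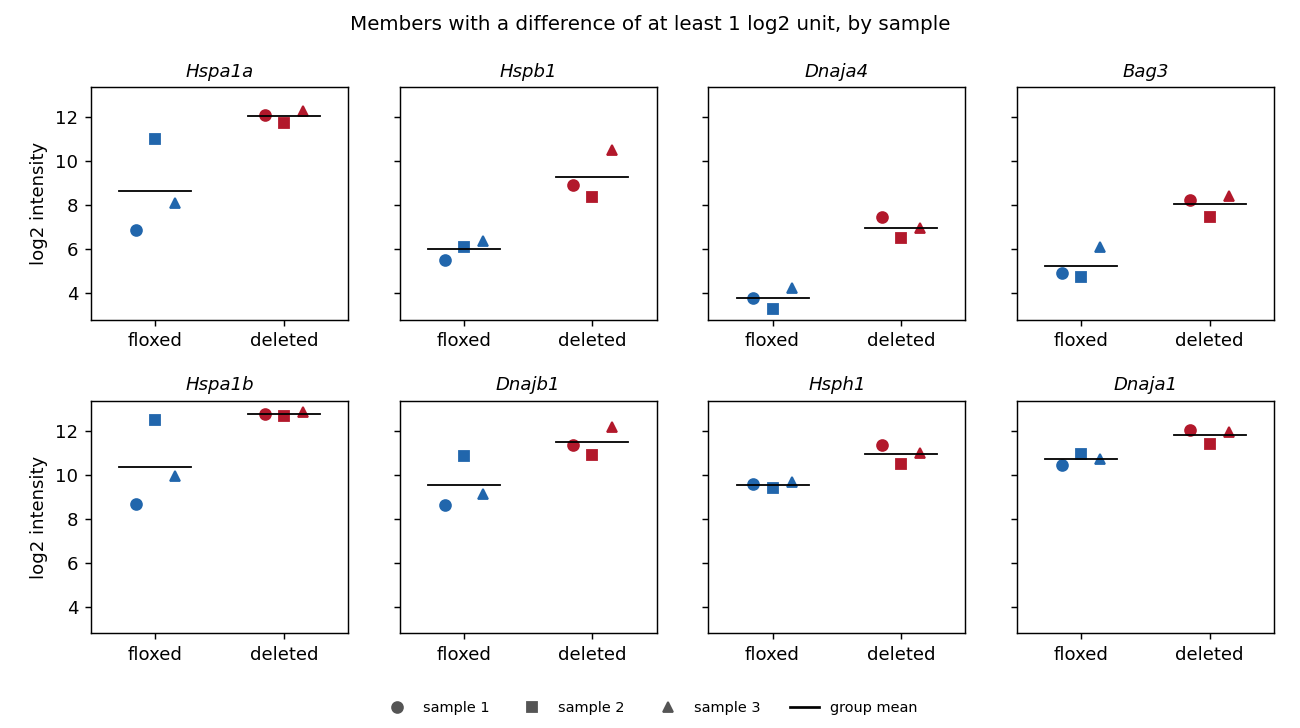
Log2 intensity (y axis) of the 8 members with a difference of at least 1, in the 3 Crebbp-floxed (blue) and 3 Crebbp-deleted (red) samples; the marker shape gives the sample number and the line the group mean. Floxed sample 2 (blue square) lies near the deleted samples for Hspa1a, Hspa1b and Dnajb1 and with the other floxed samples for Hspb1, Dnaja4, Bag3 and Hsph1.

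The 8 members with a difference of at least 1 thus showed 2 patterns over the samples. Floxed sample 2 exceeded the mean of the other floxed samples by 3.52, 3.16 and 1.97 in Hspa1a, Hspa1b and Dnajb1. In Dnaja1 and Hspb1 it exceeded that mean by 0.39 and 0.16, and in Hsph1, Dnaja4 and Bag3 it lay 0.22, 0.75 and 0.77 below it (differences of −0.22, −0.75 and −0.77). These patterns were seen in the data and not tested. Within the deleted group, sample 2 was the lowest in all 8. It was the lowest of the 3 in 29 of the 48 members (60.4%) and in 39.4% of all genes. Deleted sample 2 was also the female of that group. Within males (floxed 1 against deleted 1 and 3) the difference was 5.35 for Hspa1a, 4.20 for Hspb1, 3.42 for Dnaja4, 3.42 for Bag3 and 1.56 for Hsph1, and within females (floxed 2 and 3 against deleted 2) it was 2.17, 2.14, 2.76, 2.06 and 0.97 in the same order. For Hspa1b, Dnajb1 and Dnaja1 it was 4.16, 3.16 and 1.56 within males and 1.45, 0.94 and 0.57 within females. The female controls include floxed sample 2, which was high in Hspa1a, Hspa1b and Dnajb1. Whether the sexes differ in these differences was not tested.

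Of the HSP90 class Hsp90aa1, the inducible cytosolic HSP90, was measured. It was at 11.89, 12.01 and 12.02 in floxed and at 12.67, 12.30 and 12.46 in deleted samples, without overlap (0.51 ± 0.12 SE, 1.42-fold, limma adjusted p = 0.106), and 2 other bright probe sets gave 0.70 and 0.78. Its co-chaperones were all on the same side, with 5 of 5 differences positive (53.4% over all genes), a median of 0.52, and 0 past limma's test. By limma 4 of the 5 were higher at an unadjusted p under 0.05, as were 7.96% of all genes. Chordc1, a zinc-binding HSP90 partner, was at 9.43, 9.47 and 9.55 in floxed and at 10.46, 9.95 and 10.14 in deleted samples (0.70 ± 0.14 SE, limma adjusted p = 0.0727). Fkbp4, a prolyl isomerase of steroid receptor complexes, was at 8.23, 7.80 and 8.09 against 8.72, 8.41 and 8.56 (0.52 ± 0.14 SE, limma adjusted p = 0.149). Stip1, the adaptor that hands clients from HSP70 to HSP90, had 0.76, the ATPase activator Ahsa1 0.45 and the kinase adaptor Cdc37 0.17 (limma adjusted p = 0.221, 0.27 and 0.429). In Ahsa1 a dimmer probe set read 6.82 in floxed sample 2 against 5.01 and 5.36 in floxed samples 1 and 3 and 6.77 to 7.35 in the deleted samples, whereas the representative was lowest in floxed sample 2.

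Chaperonins enclose a protein while it folds. All 9 chaperonin genes had positive differences, where 53.4% of all genes had one, with a median of 0.15 and 0 past limma's test. By limma 3 of the 9 were higher at an unadjusted p under 0.05, as were 7.96% of all genes. These were Cct4 and the mitochondrial Hspd1 and Hspe1. The mitochondrial pair led the class. Hspd1, the mitochondrial HSP60, was at 10.19, 9.80 and 10.03 in floxed and at 10.88, 10.36 and 10.57 in deleted samples (0.59 ± 0.16 SE, limma adjusted p = 0.155), and its co-chaperonin Hspe1, which shares its promoter, had 0.43 (limma adjusted p = 0.263). The 7 measured CCT subunits, including Tcp1, lay between 0.03 (Cct2) and 0.28 (Cct4). For Cct2 the 95% interval ran from −0.19 to 0.25 and for Cct5 from −0.15 to 0.34, so changes of the size seen in Hsph1 lie outside them. Hsf2, a heat shock factor of development, had a level below the array median in every sample, at 2.64, 2.95 and 2.80 in floxed and 2.97, 2.92 and 2.75 in deleted samples (0.08, limma adjusted p = 0.806).

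Calls of single members rested on few mice, and most also changed with the processing. Dnaja4 passed in 15 of 16 alternative fits and failed without floxed sample 1 (3.22, limma adjusted p = 0.0605, over its alternatives 0.00471 to 0.0605). Hsph1 passed in 10 and failed without floxed samples 1 and 2 and deleted samples 1 and 3 (limma adjusted p = 0.135, 0.0745, 0.0995 and 0.112, over its alternatives 0.0249 to 0.135). Bag3 passed in 8 and failed without floxed samples 1 and 2 and deleted samples 1, 2 and 3 (limma adjusted p = 0.13, 0.0614, 0.136, 0.0542 and 0.0967, over its alternatives 0.00534 to 0.136). Hspb1 passed in 6 and failed without floxed samples 1, 2 and 3 and deleted samples 1 and 2 (limma adjusted p = 0.172, 0.0857, 0.0514, 0.142 and 0.0552, over its alternatives 0.0255 to 0.172). With log2(intensity + 16) Hsph1, Bag3 and Hspb1 failed too (limma adjusted p = 0.0617, 0.0583 and 0.0841). Robust variances left Bag3 and Hspb1 without a call (limma adjusted p = 0.0559 and 0.0717). Hspb1 also failed with the filter on dim genes and with all probe sets tested singly (limma adjusted p = 0.0512 and 0.0559). With sex as a term Dnaja4 kept its call (3.09, limma adjusted p = 0.0381), and Hsph1, Bag3 and Hspb1 had differences of 1.27, 2.74 and 3.17 without passing (limma adjusted p = 0.0702, 0.0823 and 0.105). The differences of the 4 genes stayed positive throughout, which their lack of overlap fixes when samples are left out.

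The share of promoters with a heat shock element was described over the set and over the array, without a test. A promoter window was found for 41 of the 48 measured members and for 14367 genes on the array. A 2-unit element was present in 19 of the 41 members (46.3%) and in 2155 of the array's genes; of all 32851 windows 15.1% held one. The stricter 3-unit element, in which a further GAA or TTC follows after 2 bases and which therefore contains a 2-unit one, was found in 5 members, namely Chordc1, Dnajb6, Hspd1, Hspe1 and Hsph1 (12.2%), and in 0.613% of the array's genes. The full palindromic cAMP response element, a site for the CREB factors that recruit CBP, was in 0 of the 41 members and 2.94% of the array's genes; this says only that these letters are not in these windows. A gene with several start sites has several windows and more chances of a match.

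Of the 8 members with a difference of at least 1, 7 had a 2-unit element (the exception was Dnajb1), and of the other 33 members with a window, 12 had one. These 7 are not separate promoters, because the windows of Hspa1a and Hspa1b are nearly identical. Among the 12, Hspd1 and Hspe1 share a run of elements. The only Bag3 match begins 42 bases after the start site. Dnaja1 has a match 124 bases before a start site, and its other windows hold none. The median difference was 0.59 in the 19 members with an element and 0.11 in the 22 without. Over the whole array, of 2155 genes with a 2-unit element 14 rose (0.650%) with a median difference of 0.02, and of 12212 without it 65 rose (0.532%) with a median of 0.01. Of the 88 array genes with a 3-unit element, Hsph1 was the 1 gene that rose, and the median was 0.04. A match of letters is a description and shows no binding.

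**Figure D3:**
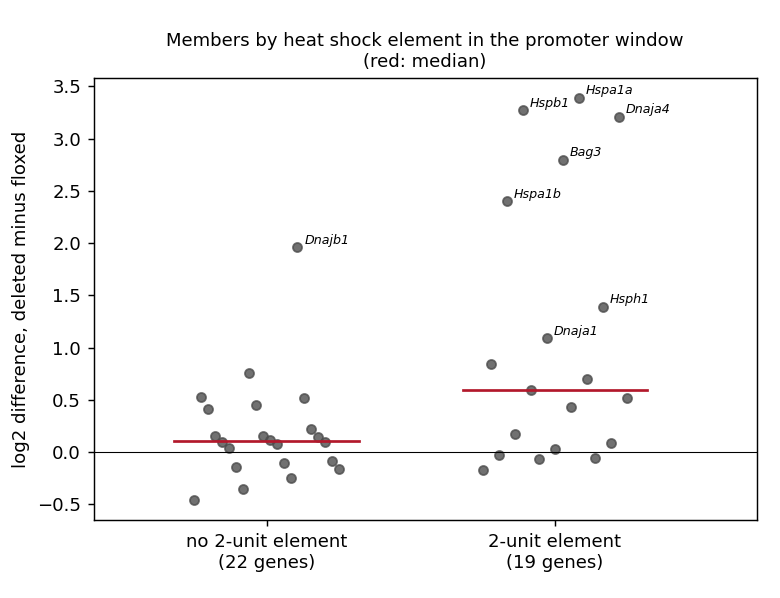
Difference in log2 intensity (y axis, deleted minus floxed) of the 41 members with a promoter window, split by whether a window holds a 2-unit heat shock element; points are genes, spread sideways for legibility, and red lines are medians (0.11 without, 0.59 with). Of the 8 labelled genes with a difference of at least 1, 7 stand on the right, and the points near 0 on the right are members that carry the element without differing. Hspa1a and Hspa1b, among the 7, have nearly identical windows.

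Genes of the same pathways outside the set were taken from lists by function. Beside the counts below, limma had 7.96% of all genes higher and 6.84% lower at an unadjusted p under 0.05. Of 44 measured other cytosolic chaperones, among them prefoldins and further DnaJ proteins, limma called 0 (8 higher and 2 lower at an unadjusted p under 0.05), with a median of 0.07 and a mean level relative to the floxed group of at most 0.08 in any sample. Small shifts were common among these 44: 16 lay higher and 2 lower without overlap, and 29 had a positive difference. The chaperonin subunit Cct6a had 0.28, the HSP90 partner Sugt1 0.25 and the splicing-linked Dnajc8 −0.30 (limma adjusted p = 0.252, 0.245 and 0.208). Of 24 measured other genes of the heat shock response 2 rose: Cacybp, a binding partner of calcium-sensing proteins, by 1.08, and the collagen prolyl hydroxylase P4ha1 by 1.17 (limma adjusted p = 0.0211 and 0.0468), and the inositol transporter Slc5a3 had 1.17 (limma adjusted p = 0.0555). Of the 24 genes 7 were higher and 2 lower by limma at an unadjusted p under 0.05. Among the 7 was Hmox1 (1.24, with overlap), named because it is also counted in the macrophage and monocyte list below. Without overlap 7 of the 24 lay higher and 1 lower. The median over the 24 was 0.14, and 6 differences were negative. The lowest was that of the small GTPase Rrad, named after its value was seen, at −0.66 without overlap (limma adjusted p = 0.155). Of 13 measured mitochondrial chaperones and proteases limma called 0 (1 lower at an unadjusted p under 0.05), with a median of −0.03, and 2 lay higher and 1 lower without overlap. Of 19 measured chaperones of the endoplasmic reticulum limma called 0 (8 higher and 1 lower at an unadjusted p under 0.05), with a median of 0.26, and 9 lay higher and 0 lower without overlap. Averaged over these 19 genes, the level relative to the floxed mean was 0.14, 0.20 and 0.81 in deleted samples 1, 2 and 3, whereas over the 48 members it was 0.61, 0.40 and 0.60. The mean over the 48 was carried largely by the 8 members with a difference of at least 1. Over the other 40 it was 0.22, 0.08 and 0.16.

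**Figure D4:**
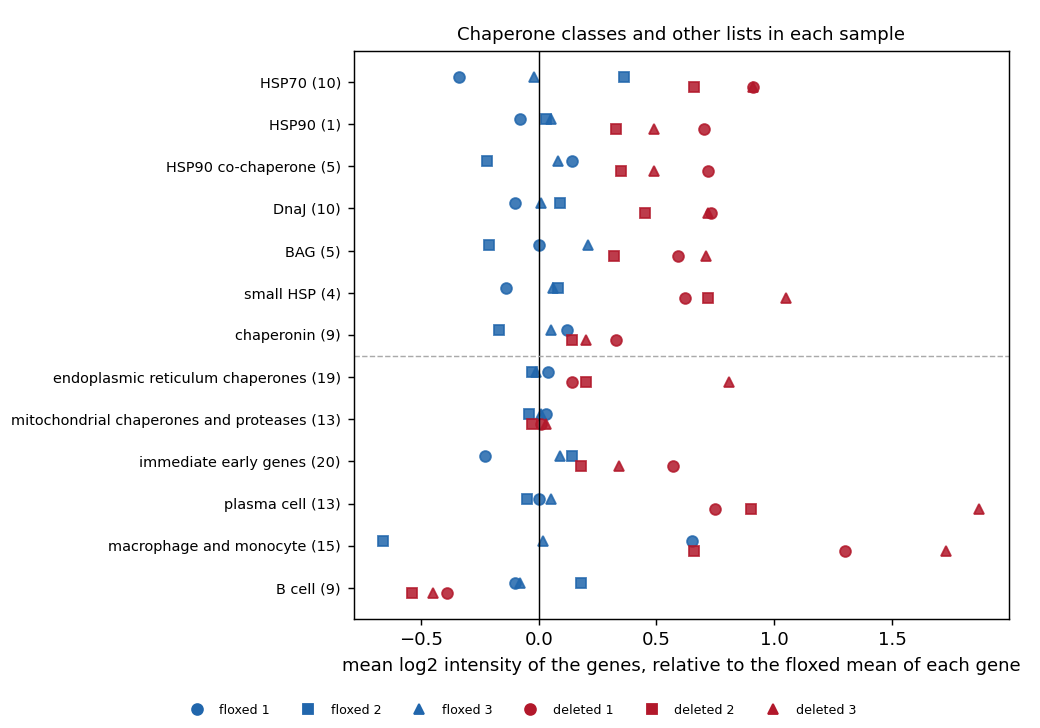
Mean log2 intensity of each class or list relative to each gene's floxed mean (x axis) in the 6 samples, with the number of genes in parentheses; blue is Crebbp-floxed, red is Crebbp-deleted, the marker shape gives the sample number, and the dashed line separates the chaperone classes from other lists. Deleted sample 1 or 3 is the highest in the 7 chaperone classes plotted (the 3 HSP70 co-chaperones, not plotted, were highest in floxed sample 1, at 0.13), and deleted sample 3 is far above the others in the plasma cell and endoplasmic reticulum lists. The means of the DnaJ, BAG and small HSP classes are carried by 3, 1 and 1 members with a difference of at least 1. The median differences of these classes were 0.05, 0.10 and −0.01.

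Some markers of other cells and of acute activation moved in the same comparison, and their part in the chaperone result was not tested. All 13 plasma cell markers were higher (1 rose, Jchain by 1.65, limma adjusted p = 0.0105). By limma 11 of the 13 had an unadjusted p under 0.05, and 11 did not overlap between the groups. Over all genes 53.4% had a positive difference, 7.96% were higher at that p, and 11.2% lay higher without overlap. The plasma cell markers had summed intensities of 6930 to 7634 in floxed and 13210 to 21838 in deleted samples, with 1 marker below the array median. All 15 measured macrophage and monocyte markers were higher, with 0 past limma's test and 9 at an unadjusted p under 0.05; their sums ran from 1014 to 2492 in floxed and from 2590 to 5064 in deleted samples, with 2 below the array median. Without overlap 5 of the 15 lay higher. Of 20 immediate early genes 2 rose, the stress factor Atf3 by 2.33 and Myc by 1.07 (limma adjusted p = 0.0148 and 0.0322). By limma 5 of the 20 were higher and 0 lower at an unadjusted p under 0.05, and 4 lay higher without overlap. Their median was 0.23, and 3 differences were negative, the lowest, named for that, being Egr3 at −0.89. Sums over the 20 genes were 34073 to 45660 in floxed and 43738 to 51878 in deleted samples. B cell markers were lower in 9 of 9, with 1 that fell, Cd79a, which dropped by 1.11 (limma adjusted p = 0.00928), and sums of 24456 to 29772 against 19174 to 20520. Limma called 0 markers of T cells (1 of 8 at an unadjusted p under 0.05), NK cells (0 of 7), neutrophils (0 of 7), erythroid cells (1 of 5) and dendritic cells (1 of 7). At that unadjusted p limma had 7.96% of all genes higher and 6.84% lower. The summed levels of each of the 5 lists from T cells to dendritic cells overlapped between the groups. For T cells they were 174 to 276 in floxed and 254 to 292 in deleted samples.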

How the data were processed

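B cells of 6 mice, 3 per group, were measured on 1 Affymetrix array each. The authors deposited 1 intensity per probe set and array; per the submitters' processing notes these were made with RMA, which corrects background, equalises quantiles and summarises probes, with no version stated in the sources used here. The deposited intensities run from 2.96 to 17022, so they were read as linear and log2-transformed, with no further normalization or filter. Of 45101 probe sets 34958 had 1 symbol, 932 several and 9211 none; for each of 18193 genes the single-symbol probe set with the highest mean was used, and 64 control probe sets were left out. The comparison used limma 3.58.1 under R 4.3.3 (lmFit, eBayes, two-sided, no covariate, Benjamini-Hochberg over all genes). With 3 against 3 mice an exact permutation test cannot go below 0.1, so none was made. The members, lists and tests were chosen with earlier results of these data known. Every sample's value is given for members called, with a difference of at least 1, or not overlapping at an unadjusted p under 0.01, and for the smallest p in any other class; of each other list up to 3 genes with the smallest p were named; the remaining members, named by their difference, fall outside that rule. Promoter windows came from RefSeq (GRCm38.p6). The fit was tested on simulated data. Figures used matplotlib 3.10.9. The number of arrays limits the precision.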

Additional observations from a re-analysis of the deposited data

How the results depend on the processing

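Quantile normalization again, centring the arrays, moderated variances with a trend, the mean of a gene's probe sets, the filter on dim genes and testing all probe sets singly kept the count of members that rose within 1.5 times of 4. It was 1 with log2(intensity + 16), 2 with robust variances, 1 with sex as a term, 7 at an adjusted p under 0.1, and 0 to 4 when each sample was left out in turn. The count of members that fell was 0 in every fit (limma; 4 were lower at an unadjusted p under 0.05 in the full fit). Over all genes, 99 rose and 43 fell; the first count was 63 with log2(intensity + 16), 64 when all probe sets were tested singly, 27 with sex as a term and 253 at an adjusted p under 0.1, and the second was 10 with sex and 196 at 0.1. Leaving out each sample gave 0 to 172 that rose and 0 to 65 that fell; both were 0 without floxed sample 1, where limma still had 1990 genes at an unadjusted p under 0.05 (2693 in the full fit). With the replicate number as a block 4 members and 91 genes rose and 35 fell; same-numbered samples, which are different mice, had deviations that correlated at 0.03, 0.10 and 0.01, and 4 of 6 samples correlated best with their own number, so the numbers were not taken as pairs. None of the 17 members given by sample and refitted under each alternative changed direction; the others were not followed singly through all alternatives, and Hspb8, at −0.03, was at 0.02 with sex as a term. In all of the 17 but Hsf2 the groups did not overlap, so leaving out samples could not reverse them. Other variance settings leave a difference as it is. The median over the members was 0.11 with the mean of a gene's probe sets and 0.12 to 0.20 when samples were left out. The cause of these shifts was not tested. Arrays give no depth; 6 members lay below the median probe set level, where folds are uncertain.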

Other observations

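Floxed sample 2 exceeded the mean of the other floxed samples by at least 2 log2 units in 14 of 18193 genes (0.0770%). These included 2 members, Hspa1a and Hspa1b, and, among genes chosen after their values were seen, the interferon-induced genes Ifi44l (3.64), Ifit1 (2.34), Ifit3 (2.21), Usp18 (2.22) and Cmpk2 (2.03). Unlike Hspa1a and Hspa1b, whose deleted samples were all at least as high as floxed sample 2, Ifit3 stood at 8.14 in floxed sample 2 and at 6.04, 6.01 and 6.24 in deleted samples 1, 2 and 3, and Usp18 at 7.94 against 6.12, 5.92 and 5.93. Xist, which is among the 14, marks the sex of the mice.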
